A study of Saccharomyces cerevisiae with 5 samples.

Results

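The molecules described here came from yeast cells without the chromatin remodeler Isw2 (isw2Δ) and from wildtype cells, and covered 4 replication origins of Saccharomyces cerevisiae. They were taken by label: both isw2Δ libraries and the wildtype library deposited as replicate 2, which together held 18036 of the 28147 origin molecules of the series. The remaining molecules came from 2 libraries without Ies6 (ies6Δ). The origins were ARS305 and ARS315, which fire early and efficiently, and ARS313 and ARS316, which fire late and inefficiently, all on chromosome III.

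Each library was a pool of 4 strains, one per origin, in which the origin and its flanks lay between recombination sites together with LexA binding sites. All strains were MATa; ura3Δ0; leu2Δ0; his3Δ1; met15Δ0; bar1::kanMX4 and carried a LexA-TAP fusion under the TEF2 promoter and R recombinase under the GAL1-10 promoter at a LEU2-marked site of chromosome I. The isw2Δ strains carried isw2delta::ura3 in addition, and the same 4 isw2Δ strains were used for both isw2Δ libraries. Cells grew in raffinose medium, were arrested in G1 with alpha factor and received 2% galactose, which induced the recombinase, so that both genotypes share the arrest, the induction and the cut-out ring. ISW2 (YOR304W, XV:884514-887876, R64) lies outside the rings, so the deletion could not be checked in these data.

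The rings were purified through LexA-TAP and treated with methyltransferases that mark accessible DNA: EcoGII, which methylates adenine, M.CviPI, which methylates C in GC, and M.SssI, which methylates C in CG. Single molecules were then read by Nanopore sequencing. A nucleosome leaves a stretch without methylation, called a footprint, and linkers and nucleosome-free regions (NFRs) leave methylated stretches. Each isw2Δ library held 1560 molecules per origin, and the wildtype library held 1495 of ARS305, 1477 of ARS315, 985 of ARS313 and 1599 of ARS316.

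Isw2 is the ATPase of an ISWI-family remodeler that slides nucleosomes along DNA, and is known for moving nucleosomes towards NFRs and for repressing transcription with the DNA-binding protein Ume6. Yeast origins hold an NFR over the sequence bound by the origin recognition complex (ORC), with a regular series of nucleosomes on each side, numbered +1, +2 on one flank and -1, -2 on the other. In G1 the replicative helicase MCM is loaded onto origin DNA, so a footprint at an origin can be a nucleosome or another protein. Ies6 is a subunit of the INO80 remodeler, which slides and spaces nucleosomes.

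Oligonucleotides of the study that fell beside the NFRs, or inside it for the plus side of ARS316, tie the rings to DNA sequence. Each was found at a single place of the 4 rings by its pattern of A and C against T and G, since a position of a molecule carries calls on 1 strand. They are shown because they lie at or next to the NFRs, where isw2Δ and wildtype molecules were compared. Capitals mark the bases that the enzymes can methylate, A and C beside G.
ARS305, minus side: tttcAtgtActgtcCggtgt
ARS305, plus side: tttttAgCcccCgtgtAAgtt
ARS315, minus side: tgtgtgtttgtAtActctgtggg
ARS315, plus side: tAAgCggCAAAAcActtgtgt
ARS313, minus side: tcAAAgAAAAggtgCtgCtgA
ARS313, plus side: tcttcCgtcttAAAAggtAgCAc
ARS316, minus side: CggCAttAtCgtAcAcAAcct
ARS316, plus side: gttcttCgttgCctAcAttttct

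In ring coordinates, counted from 1 at the first position of a read, the ARS305 pair covered 484 to 503 and 666 to 686. The pair was centred 70 bp before and 112 bp after the NFR centre at 564. An NFR centre is the highest point of the 30-bp running mean of the level, averaged over isw2Δ, wildtype and ies6Δ. Over the plus-side sequence 35.1% and 34.1% of the isw2Δ molecules were accessible (libraries 1 and 2), against 18.5% of the wildtype molecules. Over the minus-side sequence the shares were 32.4% and 34.0% in isw2Δ and 23.7% in wildtype. The isw2Δ share was thus the higher one on both flanks, with the wider gap on the plus side.

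At ARS316 the plus-side sequence, at 685 to 707 inside the NFR and 31 bp from its centre at 665, was accessible on 57.3% and 57.5% of isw2Δ molecules and on 37.3% of wildtype molecules. The ARS313 plus-side sequence, at 635 to 657 and 43 bp from the centre at 603, was accessible on 22.4% and 23.5% of isw2Δ molecules, against 11.4% of wildtype molecules. For the ARS315 minus-side sequence, centred 106 bp before the NFR centre at 561, the shares were 37.9% and 36.6% in isw2Δ and 21.3% in wildtype. At each of the 8 places both isw2Δ libraries lay above the wildtype library. This was also the common case along the rings. Of the 152 windows of 30 bp described below, 120 had a methylation level above wildtype in both isw2Δ libraries and 18 below it. Of 3 further oligonucleotides placed farther out, the one on the distal plus side of ARS316 had 35.9% and 37.5% in isw2Δ against 27.4% in wildtype. The other two went the other way, with 31.1% and 33.4% in isw2Δ against 34.0% in wildtype at the -2 nucleosome border of ARS305 and 14.5% and 14.6% against 15.1% at its +2 nucleosome border.

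Methylation depth differed between the libraries, also on the spike-ins added to each: a reconstituted nucleosomal array and a naked plasmid. Over all called positions 12.3% and 11.9% of the array was methylated in the isw2Δ libraries and 6.95% in the wildtype library, and 33.6% and 34.9% against 24.99% of the plasmid. Levels below were therefore divided by the array mean of the same library and strand, and for footprints the calls of each library were thinned to the lowest array mean, which kept 53.0% and 52.3% of the forward-strand calls and 60.6% and 65.9% of the reverse-strand calls of the isw2Δ libraries and 100% of the wildtype calls. The balance of A and C calls at the oligonucleotides differed as well, and its source was not tested. Over the bases of the matched oligonucleotides 26.1% and 26.4% of A was methylated in isw2Δ, against 10.6% in wildtype, while C beside G was methylated at 6.86% and 8.80% in isw2Δ and at 12.1% in wildtype. These values cover 118 A and 41 C beside G. At them A was methylated more often in isw2Δ and C beside G more often in wildtype. Over whole loci, the positions outside the adenine set described below include all CG and GC, but also each A beside a T or G. They therefore do not give the level of C alone, and they were methylated more often in isw2Δ. They gave 17.9% and 17.8% against 9.13% at ARS305 and 13.1% and 12.5% against 7.28% on the array.

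Tests used limma across the 5 libraries, which leaves 2 residual degrees of freedom for each window or region. The p-values were adjusted after Benjamini-Hochberg over all windows or regions. In the fits over all called positions the spread was pooled over all windows, or all regions, which shared 1 standard error per contrast. The p-values thus treat windows or regions of the same libraries, some of them overlapping, as independent measures of the spread. The wildtype had a single library here, so the spread behind each p-value is that of the isw2Δ and ies6Δ pairs, which may be technical, and with 2 libraries against 1 the smallest p that exact permutation allows is 0.333. The 2 ies6Δ libraries are set beside several results because they lay on the same side of the wildtype library at many places. Whether such a difference belongs to the mutations or to the 1 wildtype library cannot be told apart from these data.

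The NFR was open on more molecules in isw2Δ than in wildtype at all 4 origins. A region was called open on a molecule when at least 50% of it was in the accessible state, and 10 of 12 regions (percent called 83.3%) had a higher open share in isw2Δ at an adjusted p below 0.05 (limma), none a lower one. The NFR of ARS305, ring positions 511 to 600, was open on 85.2% and 86.8% of isw2Δ molecules, against 55.1% of wildtype molecules (95% Wilson interval 52.5 to 57.6%). Here the difference was 30.9 percentage points (SE 3.12, adjusted p = 1.75e-09, limma). Wilson intervals cover counting error only, since molecules of 1 library are not replicates.

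For ARS313 the NFR was open on 52.6% and 47.2% of isw2Δ molecules, against 18.8% of wildtype molecules (16.5 to 21.3%), a difference of 31.1 points (adjusted p = 1.75e-09). ARS316 had an open NFR on 56.3% and 57.3% of isw2Δ molecules and on 31.1% of wildtype molecules (28.9 to 33.5%), a difference of 25.7 points (adjusted p = 3.91e-08). The smallest difference was that of ARS315, with 64.9% and 68.7% in isw2Δ and 51.3% in wildtype (48.7 to 53.8%), or 15.5 points (adjusted p = 6.75e-05). Within each genotype the order of the origins was the same at both ends, with ARS305 the most often open and ARS313 the least. In the wildtype library the early origins ARS305 and ARS315 lay above both late origins by more than the Wilson intervals.

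The ARS itself, the stretch that holds the ORC binding sequence, gave similar values. At ARS305 it was open on 83.9% and 85.6% of isw2Δ molecules and 53.8% of wildtype molecules, a difference of 31.0 points (adjusted p = 1.75e-09). At ARS313 the shares were 53.2% and 48.3% in isw2Δ and 19.3% in wildtype (31.4 points, adjusted p = 1.75e-09). ARS316 gave 43.0% and 47.7% in isw2Δ and 21.5% in wildtype (23.9 points, adjusted p = 1.16e-07). ARS315, whose ARS window is the longest, gave 38.1% and 43.0% in isw2Δ and 26.6% in wildtype (14.0 points, adjusted p = 0.000189). No isw2Δ library overlapped the wildtype library at any of the 4.

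**Figure D1:**
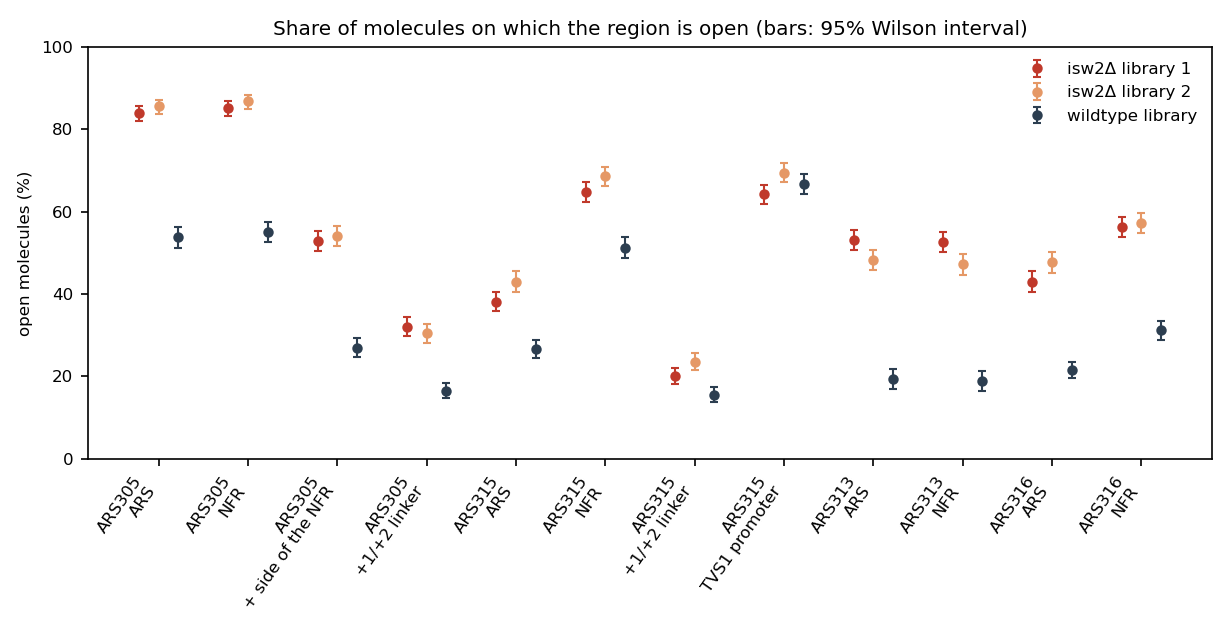
Share of molecules (y axis, percent) on which each of the 12 regions (x axis) was open, as points for isw2Δ library 1, isw2Δ library 2 and the wildtype library, with 95% Wilson intervals as bars. The ARS and NFR points of both isw2Δ libraries lie above the wildtype point at every origin, while at the TVS1 promoter of ARS315 the wildtype point, at 66.8%, lies between the isw2Δ points.

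Along the rings, 75 of 152 windows of 30 bp differed in normalized methylation level (percent called 49.3%), 68 of them higher in isw2Δ (44.7%) and 7 lower (4.61%). The median log2 ratio over all windows was 0.29. Divided by the mean of the whole ring in place of the array, 15 windows were higher and 10 lower, so the count of windows rests on the array as the measure. The higher windows numbered 24 of 41 at ARS316, 18 of 34 at ARS313, 14 of 41 at ARS315 and 12 of 36 at ARS305, and the lower ones 0, 1, 4 and 2. By distance, 17 of 27 windows within 100 bp of an NFR centre were higher and 0 lower, 21 of 40 at 100 to 250 bp were higher and 0 lower, and 30 of 85 farther out were higher and 7 lower. The median log2 ratio was 0.44, 0.38 and 0.26 in these 3 zones.

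Footprint occupancy, the share of molecules on which the window centre lay in a protected stretch of at least 100 bp, differed in 92 of 152 windows (60.5%). Shorter protected stretches did not count as occupied. It was lower in isw2Δ in 89 (58.6%) and higher in 3 (1.97%), with a median difference of -8.07 points. Over the whole rings a footprint covered a mean of 63.7% and 62.0% of isw2Δ molecules and 72.4% of wildtype molecules. Within 100 bp of the NFR centres the means were 46.6% and 45.7% in isw2Δ and 64.9% in wildtype, and the median difference was -20.0 points. Beyond 250 bp it was -7.40 points. The loss of footprint was thus deepest around the NFRs, and 23 of the 27 windows there passed the test, against 22 of 40 and 44 of 85 in the outer zones.

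**Figure D2:**
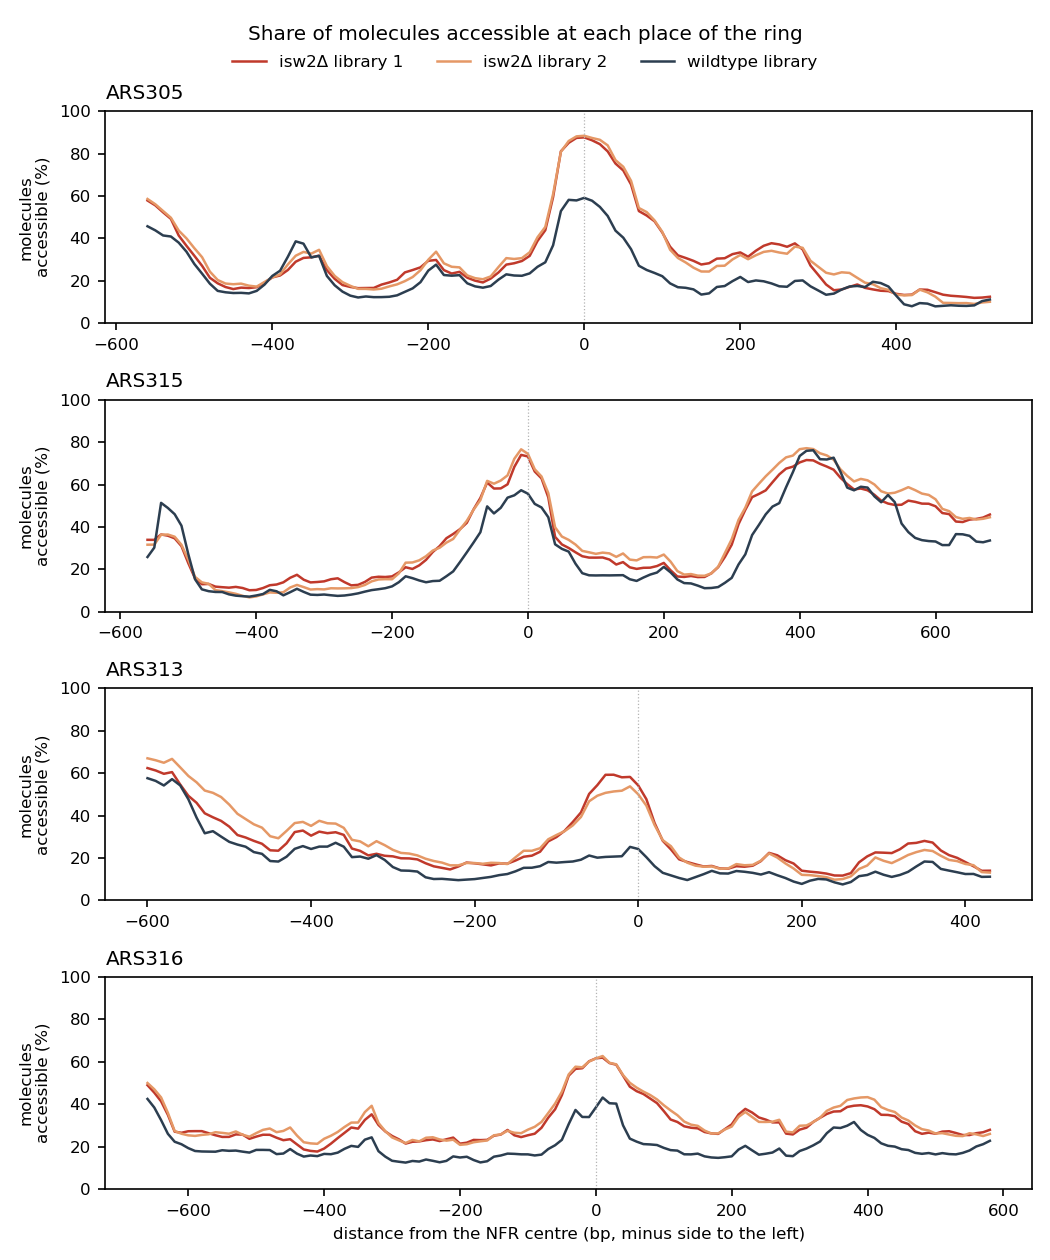
Share of molecules in the accessible state (y axis, percent) by distance from the NFR centre (x axis, bp) for the 4 origins, with 1 line each for isw2Δ library 1, isw2Δ library 2 and the wildtype library. The isw2Δ lines run together and above the wildtype line at the central peak of each origin, where the NFR was open on 85.2% and 86.8% of isw2Δ molecules and 55.1% of wildtype molecules at ARS305.

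At ARS305 the largest log2 ratios of the level lay on the plus side of the NFR, although the open share differed more at the NFR and the ARS. Window 22, centred 82 bp from the NFR centre, had a level of 2.06 and 2.27 times the array in isw2Δ and 1.10 in wildtype, a log2 ratio of 0.97 (SE 0.15, adjusted p = 4.55e-08, limma). Window 21, at 52 bp, had a log2 ratio of 0.79 (adjusted p = 5.39e-06). This stretch, at 601 to 660, is where the first nucleosome after the NFR begins, and it was open on 52.9% and 54.0% of isw2Δ molecules and on 26.96% of wildtype molecules (26.5 points, adjusted p = 2.6e-08).

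On the plus side of ARS305 isw2Δ differed from ies6Δ as well. Footprint occupancy of window 22 was 45.8% and 45.3% in isw2Δ, 62.5% and 65.8% in ies6Δ and 70.4% in wildtype. The plus-side region was open on 34.2% and 32.2% of ies6Δ molecules, which puts isw2Δ 20.3 points above ies6Δ (SE 2.55, adjusted p = 4.25e-07, limma, 2 libraries against 2). The wildtype library is not a term of this contrast. It still set the scale, since the calls were thinned to its array mean. The footprint model also used methylation rates averaged over the 5 libraries. Across all regions 4 of 12 (33.3%) differed between isw2Δ and ies6Δ, all higher in isw2Δ, and in level 11 of 152 windows (7.24%) differed, 8 higher (5.26%) and 3 lower (1.97%). Without isw2Δ library 2 or without ies6Δ library 1 the regions that passed numbered 1, the plus side of ARS305.

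Farther along ARS305, the linker between the +1 and +2 nucleosomes, at 751 to 870, was open on 32.1% and 30.4% of isw2Δ molecules and on 16.5% of wildtype molecules (14.7 points, adjusted p = 0.000113). In ies6Δ it was open on 34.7% and 27.7%, and the isw2Δ minus ies6Δ difference was 0.03 points (SE 2.55). Window 34, at 442 bp, had a log2 ratio of 0.72 (adjusted p = 3.12e-05). Windows 32 (at 382 bp) and 7 (at 368 bp before the centre) were the 2 that fell. The level of window 32 was 0.982 and 1.01 in isw2Δ and 1.502 in wildtype, a log2 ratio of -0.59 (adjusted p = 0.000569), and that of window 7 had a log2 ratio of -0.46 (adjusted p = 0.00745).

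ARS315 carries on its ring the promoter of TVS1 (YCR061W, III:225563-227458, R64), at ring positions 931 to 1110. Over all called positions this promoter was open on 64.2% and 69.5% of isw2Δ molecules and 66.8% of wildtype molecules, so that the wildtype value lay between the isw2Δ libraries (0.03 points, SE 3.12, adjusted p = 0.991). In ies6Δ it was open on 57.7% and 61.7%, which put isw2Δ 7.18 points above ies6Δ (adjusted p = 0.0286). Windows 33 and 37, both inside the promoter, had log2 ratios of -0.57 each (adjusted p = 0.000794 and 0.000897). Window 2, at the ring end, had a log2 ratio of -0.53 (adjusted p = 0.00197).

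The borders of the TVS1 promoter differed in the other direction. Window 38, just beyond it at 564 bp from the NFR centre, had a log2 ratio of 0.74 (adjusted p = 2.19e-05). In window 30, which ends 30 bp before the promoter, a footprint covered 44.2% and 42.4% of isw2Δ molecules, 69.2% and 71.3% of ies6Δ molecules and 64.5% of wildtype molecules. The isw2Δ minus ies6Δ difference there was -26.96 points (adjusted p = 9.53e-18, limma), and footprint occupancy was lower in isw2Δ than in ies6Δ in windows 29 to 32 and 37 to 41. Of the 18 windows (11.8%) with lower occupancy in isw2Δ than in ies6Δ, 9 thus flanked or overlapped this promoter and 4 lay on the plus side of ARS305.

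Elsewhere on ARS315 window 10, at 276 bp before the NFR centre, had the highest log2 ratio, 0.83 (adjusted p = 2.25e-06), and window 5 followed with 0.75 (adjusted p = 1.63e-05). Footprint occupancy of these windows missed the threshold (adjusted p = 0.134 and 0.479). The +1/+2 linker, at 721 to 810, was open on 20.1% and 23.6% of isw2Δ molecules and 15.5% of wildtype molecules, and its difference of 6.32 points did not pass the test (SE 3.12, adjusted p = 0.059).

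The late origins changed over a wider part of the ring. At ARS313 the 3 windows with the largest log2 ratios were 19, 21 and 27, with 0.88 (adjusted p = 6.14e-07), 0.80 (4.93e-06) and 0.74 (1.93e-05), and all 6 windows within 100 bp of the centre passed the test. Only window 2, at the ring end, was lower (log2 ratio -0.51, adjusted p = 0.00265). The NFR level of ARS313 was 2.59 and 2.32 times the array in isw2Δ and 1.44 in wildtype. At ARS316 windows 20, 17 and 15, all on the minus side of the NFR, had log2 ratios of 0.72 (adjusted p = 3.18e-05), 0.69 (7.3e-05) and 0.66 (0.00011), and no window was lower. The ARS and NFR of ARS316 were also open on more molecules in isw2Δ than in ies6Δ. The differences were 9.44 points (adjusted p = 0.00667, limma) and 7.22 points (adjusted p = 0.0286). At ARS316, however, the ies6Δ libraries held only 176 and 575 molecules, against 1560 in each isw2Δ library. The shared standard error of 2.55 points does not take this depth into account. For the NFR, the Wilson intervals of ies6Δ were 39.9 to 54.5% and 47.9 to 56.1%. Those of isw2Δ were 53.8 to 58.7% and 54.8 to 59.7%, so the NFR intervals overlapped in part.

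Because the balance of A and C calls differed at the oligonucleotides, levels were also computed over positions called on the same strand as both neighbours. At these positions neither CG nor GC can lie, and A is the only base the enzymes can methylate. They are called adenine positions here, although the set also holds cytosines without a neighbouring G, which could not be removed without the ring sequence. On these positions the 2 spike-ins gave the same ratio of isw2Δ to wildtype, 1.64 for the array (9.28% and 9.74% against 5.80%) and 1.64 for the plasmid (32.2% and 32.6% against 19.8%). The ratio was higher on the rings, with 2.401 for ARS313, 2.34 for ARS316, 2.33 for ARS315 and 2.22 for ARS305. Each origin thus exceeded both spike-ins. On the other positions, which hold CG and GC and the remaining adenines, the ratios were 1.76 for the array and 1.29 for the plasmid. For the origins they were 2.00, 2.13, 1.71 and 1.96 in the same order.

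With adenine positions alone 87 windows were higher and 1 lower. Of the 6 named windows that were lower over all positions, the 1 still lower was window 32 of ARS305, whose levels of 0.131 and 0.136 times the array in isw2Δ and 0.2002 in wildtype were too near 0 to read a direction from, and the other 5 turned positive without passing the test. The 12 named windows with a higher level over all positions had a positive log2 ratio on adenine positions too. The TVS1 promoter was open on 35.5% and 32.2% of isw2Δ molecules, 21.9% and 26.5% of ies6Δ molecules and 15.4% of wildtype molecules with adenine positions, a difference of 18.4 points from wildtype (adjusted p = 9.34e-08) in place of the 0.03 points over all positions. The NFR differences on adenine positions were 22.6 points at ARS313, 22.5 at ARS316, 21.6 at ARS305 and 10.8 at ARS315, all past the threshold.

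**Figure D3:**
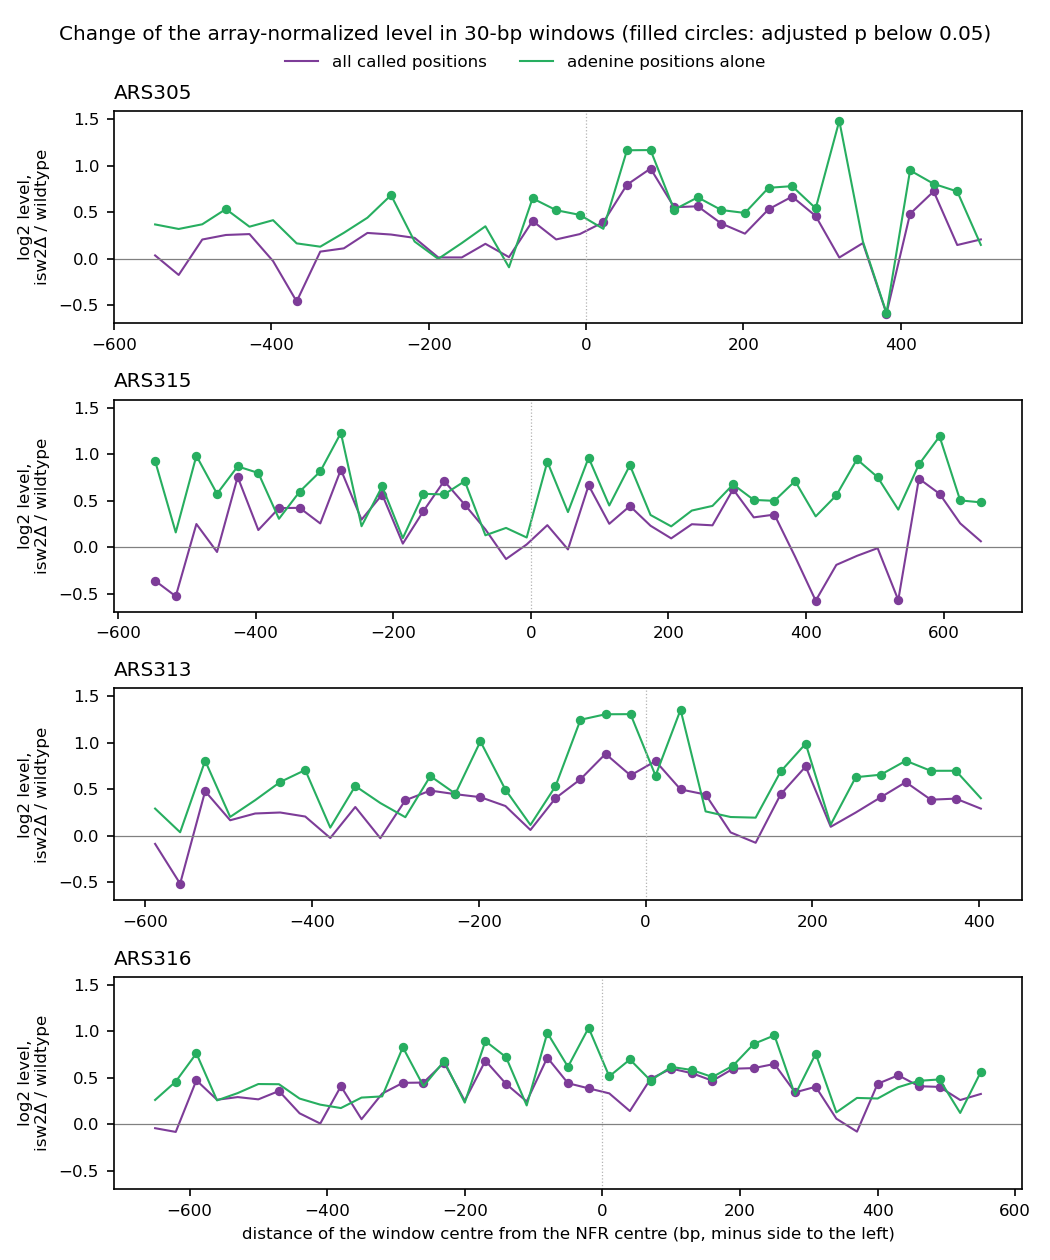
Log2 ratio of the array-normalized methylation level in isw2Δ over wildtype (y axis) in 30-bp windows by distance from the NFR centre (x axis, bp), for all called positions and for adenine positions alone, with filled circles at an adjusted p below 0.05 (limma). Within 100 bp of the NFR centre both lines lie above 0 at ARS313 and ARS316, with the highest ratio over all positions at ARS305 (0.97, window 22), and the lower windows over all positions, such as window 33 of ARS315 at -0.57, are above 0 on adenine positions except for window 32 of ARS305.

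The length of single footprints was compared next. Among footprints of 100 to 200 bp, the size range of a nucleosome, the median length was 142 and 140 bp in isw2Δ and 139 bp in wildtype at ARS305. At ARS315 it was 142 and 139 bp in isw2Δ against 143 bp, at ARS313 141 and 141 bp against 140 bp, and at ARS316 143 and 139 bp against 142 bp in wildtype. The array gave 145 and 149 bp in isw2Δ and 149 bp in wildtype. At no origin did isw2Δ and wildtype medians lie more than 4 bp apart, and the array libraries spanned the same range. As the class is bounded at 100 and 200 bp and the model expects 150 bp, this median can move little and says nothing about footprints outside the class. Without thinning the medians were lower in both isw2Δ libraries than in wildtype at all 4 origins, for example 137 and 136 bp against 142 bp at ARS305.

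Nucleosome-sized footprints made up 40.2% and 37.5% of the complete footprints in isw2Δ and 35.9% in wildtype at ARS305, 32.8% and 29.8% against 27.7% at ARS315, 33.9% and 33.1% against 32.02% at ARS313, and 34.6% and 34.1% against 31.1% at ARS316. With thinned calls both isw2Δ libraries lay above the wildtype library each time. On the array, in contrast, they made up 41.7% and 40.2% in isw2Δ and 43.2% in wildtype. Footprints shorter than 100 bp took 26.8% and 30.3% in isw2Δ against 33.9% in wildtype at ARS305. Those over 200 bp took 33.0% and 32.3% against 30.2%. These directions depended on the thinning. Without it the ARS305 shares were 48.0% and 53.2% against 42.8% for short footprints and 17.2% and 16.3% against 26.3% for long ones. Nucleosome-sized ones then made up 34.8% and 30.6% in isw2Δ and 30.9% in wildtype. A footprint over 200 bp can hold neighbouring nucleosomes whose linker received no methylation, so the long class is not a class of larger particles.

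With thinned calls, neighbouring nucleosome-sized footprints lay farther apart in isw2Δ at 3 of the 4 origins. The median distance between their midpoints was 222.5 and 220.3 bp in isw2Δ (299 and 268 pairs) and 190 bp in wildtype (243 pairs) at ARS305. At ARS316 it was 210 and 216 bp in isw2Δ (318 and 321 pairs) and 184 bp in wildtype (195 pairs), and at ARS315 205.5 and 207 bp (304 and 268 pairs) against 193 bp (248 pairs). ARS313 had 209 and 194 bp in isw2Δ (208 and 202 pairs) and 206 bp in wildtype (92 pairs), with the wildtype value between the isw2Δ libraries. The array gave 188 and 187.5 bp in isw2Δ and 188 bp in wildtype.

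The accessible stretch between such footprints, which is the NFR itself for pairs that span it, was longer in isw2Δ at the same 3 origins. Its median was 77 and 84.5 bp in isw2Δ and 48 bp in wildtype at ARS305, 67 and 70 bp against 45 bp at ARS316, and 62 and 59 bp against 48.5 bp at ARS315. At ARS313 it was 66 and 48 bp in isw2Δ and 53 bp in wildtype, and on the array 43 and 38 bp against 38 bp. For pairs away from the NFR the medians lay closer together. They were 50 and 47 bp in isw2Δ against 40 bp at ARS305 and 48 and 51 bp against 36.5 bp at ARS316. At ARS315 they were 48 and 51 bp against 43 bp, and at ARS313 46 and 39 bp against 48 bp. None of the lengths on molecules was tested, as 2 libraries stand against 1. Without thinning of the calls the mean spacing difference over the 4 origins was 5.44 bp, in place of 17.3 bp. At ARS315 the wildtype spacing of 185 bp then lay between the isw2Δ libraries, at 190 and 182.5 bp. At ARS305 the spacing was 187.5 and 186 bp in isw2Δ against 181.75 bp in wildtype.

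At the same 3 origins the distance differed more across the NFR than away from it. At ARS305, pairs with the NFR between them were 284.5 and 284.5 bp apart in isw2Δ (111 and 103 pairs) and 257 bp apart in wildtype (57 pairs), while pairs away from the NFR were 189 and 187 bp apart in isw2Δ and 180.3 bp in wildtype. At ARS315 the distance across the NFR was 333 and 367 bp in isw2Δ (60 and 58 pairs) and 299 bp in wildtype (28 pairs). Away from it the distance was 196 and 195 bp against 188 bp. At ARS316 it was 319 and 333 bp in isw2Δ (67 and 70 pairs) and 299 bp in wildtype (29 pairs) across the NFR. Away from the NFR it was 195.5 and 194.5 bp against 179.5 bp. The wildtype medians across the NFR of ARS315 and ARS316 thus rest on few pairs. ARS313 differed, with 307.5 and 312 bp in isw2Δ across the NFR and 346.5 bp in wildtype, where only 11 wildtype pairs were found.

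Wide pairs accounted for a larger share of all pairs in isw2Δ where the wildtype spacing was short. All pairs were counted, also those across the NFR. At ARS305 the latter were 111 of 299 and 103 of 268 pairs in isw2Δ and 57 of 243 in wildtype. At ARS305 38.8% and 36.9% of isw2Δ pairs were at least 250 bp apart, against 19.8% of wildtype pairs, and at ARS316 32.7% and 34.9%, against 21.5%. ARS315 gave 30.3% and 31.7% in isw2Δ and 16.9% in wildtype. ARS313 again had its wildtype value between the isw2Δ libraries, with 29.3% and 24.8% in isw2Δ and 27.2% in wildtype.

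**Figure D4:**
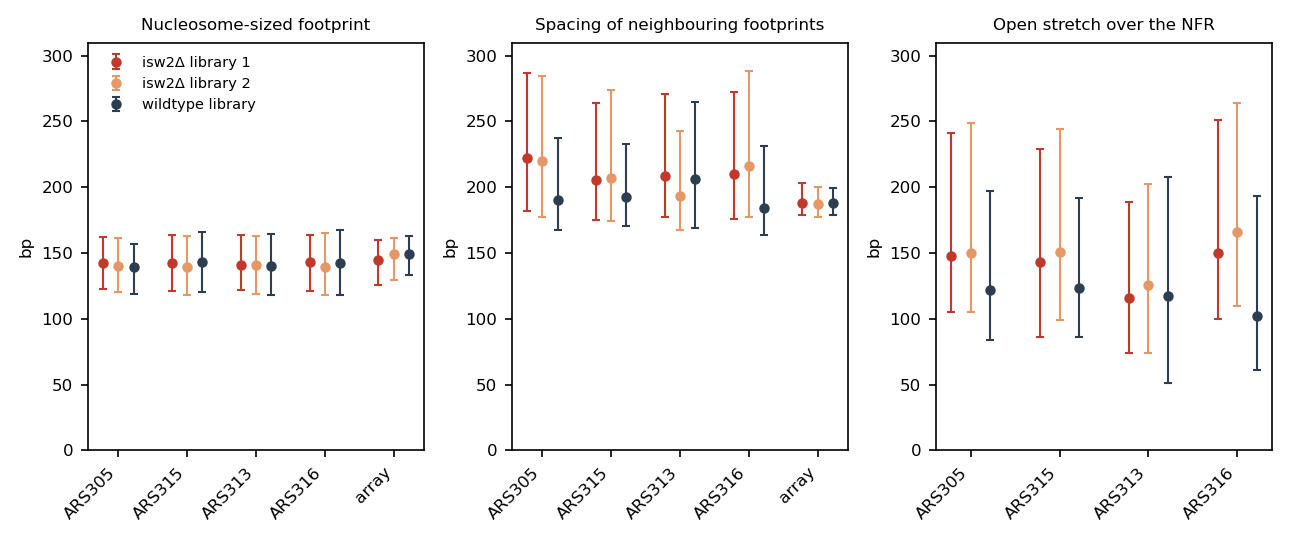
Median length of nucleosome-sized footprints, median midpoint spacing of neighbouring footprints and median length of the open stretch over the NFR (y axes, bp) by origin and on the array (x axes), with quartiles as bars, for isw2Δ library 1, isw2Δ library 2 and the wildtype library. Footprint lengths, bounded at 100 and 200 bp, lie within 4 bp of each other at every origin, whereas spacing at ARS305 is 222.5 and 220.3 bp in isw2Δ and 190 bp in wildtype.

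The open stretch over the NFR was longer on isw2Δ molecules at ARS305, ARS315 and ARS316. On molecules open at the NFR centre its median was 147.5 and 150 bp in isw2Δ and 122 bp in wildtype at ARS305, 143 and 151 bp against 123 bp at ARS315, and 150 and 166 bp against 102 bp at ARS316. At ARS313 it was 116 and 126 bp in isw2Δ and 117 bp in wildtype, so that the wildtype value lay between the isw2Δ libraries. The molecules behind these medians made up 88.2% and 88.8% of isw2Δ molecules and 60.7% of wildtype molecules at ARS305, and 53.8% and 49.2% against 23.7% at ARS313. The ARS313 order depended on the processing, with 121 and 116 bp in isw2Δ against 59 bp in wildtype without thinning, 125 and 130.5 bp against 91.5 bp with thinning to the plasmid, and 130 and 133 bp against 92 bp with emission rates of each library. On forward-strand reads alone the mean difference over the 4 origins was 4.25 bp, against 27.7 bp over all reads.

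The reach of the opening was measured on each side of the NFR centre, which was set on the mean of the genotypes. The wildtype peak itself lay at 547 at ARS305, where the centre is 564, and at 682 at ARS316, where it is 665. At ARS305 the open stretch reached 86 and 90 bp to the plus side of the NFR centre in isw2Δ and 64 bp in wildtype, and 48 and 48 bp to the minus side against 40 bp. At ARS316 it reached 78 and 90 bp to the plus side in isw2Δ and 42 bp in wildtype, and 57 and 62 bp to the minus side against 39 bp. At ARS315 the reach to the minus side was 77 and 82 bp in isw2Δ and 65 bp in wildtype, while that to the plus side, 33 and 44 bp, lay on both sides of the 35 bp of wildtype. At ARS313 it reached 72 and 76 bp to the minus side in isw2Δ and 53 bp in wildtype, and 27 and 33 bp to the plus side against 27 bp.

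The footprint that bordered the opening, where it was nucleosome-sized, also lay farther out at most flanks. Such a footprint was found on a minority of open molecules, from 13.7% (minus side of ARS315, wildtype) to 29.9% (plus side of ARS316, isw2Δ library 2). On the plus side of ARS305 its midpoint was 147 and 150 bp from the NFR centre in isw2Δ and 122.5 bp in wildtype, and on the minus side 120 and 119 bp against 114.5 bp. On the minus side of ARS315 the midpoint was at 191.5 and 181 bp in isw2Δ and 137 bp in wildtype, and on its plus side at 129 and 127 bp against 117 bp. At ARS316 it was at 148.5 and 153 bp in isw2Δ and 135 bp in wildtype on the plus side, and at 147.5 and 157 bp against 134 bp on the minus side. On the plus side of ARS313 isw2Δ footprints lay closer, at 102 and 105 bp against 111 bp in wildtype. On its minus side the wildtype value, 178 bp, lay between the isw2Δ libraries, at 176 and 183 bp. The wildtype values of ARS313 rest on 55 molecules on the plus side and 50 on the minus side.

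Whole molecules differed too. No accessible stretch at all was found on 0.962% and 0.769% of isw2Δ molecules and 5.82% of wildtype molecules at ARS305, on 2.88% and 2.44% against 9.64% at ARS313, and on 1.99% and 2.95% against 10.6% at ARS316. At ARS315 the shares were 0.321% and 0.385% in isw2Δ and 0.609% in wildtype. At the other end, at least 50% of the ring was accessible on 18.01% and 18.1% of isw2Δ molecules and 9.90% of wildtype molecules at ARS305, and on 15.6% and 14.1% against 5.58% at ARS313. ARS315 gave 19.9% and 21.2% in isw2Δ and 9.82% in wildtype, and ARS316 20.4% and 21.3% in isw2Δ and 10.1% in wildtype. On the array the fully protected share was 4.68% and 1.99% in isw2Δ and 3.65% in wildtype, and the share with at least 50% accessible was 2.76% and 1.92% against 2.19%.

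The +1/+2 linker of ARS305 was more often open on molecules whose NFR was open, in both genotypes. With an open NFR it was open on 34.5% and 32.8% of isw2Δ molecules and 25.8% of wildtype molecules, and with a closed NFR on 18.2% and 15.05% in isw2Δ and 5.21% in wildtype. For the plus side of the NFR the shares were 59.1% and 59.4% in isw2Δ against 41.2% with an open NFR, and 17.3% and 18.9% against 9.52% with a closed one. The isw2Δ share was the higher one within open and within closed molecules. The TVS1 promoter of ARS315 was open on 68.4% and 72.2% of isw2Δ molecules and 68.2% of wildtype molecules when the NFR was open, and on 56.6% and 63.6% in isw2Δ and 65.4% in wildtype when it was closed. Both isw2Δ libraries thus had the higher share with an open NFR, while the wildtype shares lay close together.

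Linker positions were compared as peaks along the ring. Of 44 peaks of the 30-bp running mean, 14 lay at least 10 bp away from the wildtype position in both isw2Δ libraries, some of them at the edge of the 40-bp range searched. Which peaks moved depended on the setting: 5 of these 14 moved with a 50-bp mean, 7 when forward reads and 5 when reverse reads were used alone. The NFR peak of ARS305 was at ring position 564 in both isw2Δ libraries and at 547 in wildtype, a shift of 17 bp that was 5 bp with a 50-bp mean, 4 bp on forward and -0.5 bp on reverse reads. That of ARS316 was at 665 and 662 in isw2Δ and at 682 in wildtype, a mean shift of -18.5 bp that was 28 bp on forward and -40.5 bp on reverse reads. No shift of either NFR peak therefore held on both strands. The NFR peaks of ARS313 (603) and ARS315 (561) were at the same position in all 3 libraries with the 30-bp mean over all reads. This too depended on the setting. The mean shift at ARS313 was -25 bp on reverse reads, and that at ARS315 was 12 bp on forward reads and 15 bp with a 50-bp mean. The linker before the NFR of ARS315 lay at 430 in both isw2Δ libraries and at 395 in wildtype, but its mean shift of 35 bp was -29 bp with a 50-bp mean and 0 bp with a 60-bp search. The ies6Δ libraries placed the ARS305 NFR peak at 564 as well, so that the wildtype library stood alone there.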

How the data were processed

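Per the study's methods, the authors called modified bases on Nanopore reads with Megalodon and guppy, aligned them with minimap (build R64) and turned scores into calls with thresholds of their own for adenine and CG methylation. The deposited files hold a methylated fraction of 0 or 1 per base and read, a read per line and a ring position per column, not normalized, and for several files a fixed number of reads was taken. In 3 files, read as the others, values stood in 1 space-separated column, entered as another unit. Forward and reverse reads carry calls at different positions. 1 of 43459 reads was dropped.

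Levels were averaged over 30-bp windows and divided by the array mean of the same library and strand. For footprints, calls were thinned at random to the lowest array mean, and a hidden Markov model with a protected and an accessible state (expected lengths 150 and 40 bp) was run over positions methylated on at least 1% of molecules. Footprints of 100 to 200 bp counted as nucleosome-sized, and those ending at a read end were left out of lengths. Windows and regions were tested with limma 3.58.1 (R 4.3.3; lmFit and eBayes, all 5 libraries, threshold 0.05), with NumPy 2.4.6 and SciPy 1.17.1 elsewhere. The estimated prior was so strong that all windows shared 1 standard error, 0.15 for log2 levels and 3.36 points for occupancy. Both steps were tested on simulated data.

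Named features were every region, peaks, and per origin up to 3 windows that rose and 3 that fell most with both isw2Δ libraries on the same side. Members, regions and lists were chosen with earlier results of these data known, and the sets of adenine positions after seeing the data. No chromosomal coordinates of the rings were used, as no genome was given.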

Additional observations from a re-analysis of the deposited data

Results flagged for a closer look

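In isw2Δ library 1, 12.3% of the naked plasmid molecules (192 of 1560) were methylated at less than 50% of the median of that library, against 0.641% in isw2Δ library 2 and 0.2% in the wildtype library. The plasmid of all 5 libraries, these molecules included, set the methylation rate of the accessible state in the footprint model. All open shares and footprints above thus rest on it in part. Its methylation was also set beside that of the origins. The origin values of the 2 isw2Δ libraries lay close together.

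ARS315 ran opposite to ARS305 and ARS313 in footprint length, while at ARS316 the wildtype value lay between the isw2Δ libraries in both measures below. The share of footprints over 200 bp was lower in isw2Δ than in wildtype at ARS315, by a mean of -1.58 percentage points with both libraries below wildtype, while both lay above it at ARS305 and ARS313. The median nucleosome-sized length at ARS315 differed by -2.5 bp from wildtype, again opposite to ARS305 and ARS313. The difference between the origins was not tested in either case. Without thinning the share of footprints over 200 bp was below wildtype at ARS305 as well, with 17.2% and 16.3% in isw2Δ against 26.3%.

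ARS313 stood apart in spacing. Across its NFR the median midpoint distance differed by -36.75 bp from wildtype, opposite to ARS305, ARS315 and ARS316, and away from the NFR by -9.5 bp. Only 11 wildtype pairs spanned the ARS313 NFR, and the difference between the origins was not tested.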

How the results depend on the processing

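Of 12 regions 10 were called in isw2Δ, and under the alternatives between 10 and 12 were, the forward reads giving 1 lower region among 11. Leaving out 1 library gave 10 to 11 regions, 51 to 80 windows for the level (main value 75) and 65 to 94 for footprint occupancy (92). The isw2Δ and wildtype libraries share 1 replicate number, and numbers did not pair samples beyond that (correlation of isw2Δ and ies6Δ deviations 0.11). With the replicate number as a block 67 windows, 65 windows and 10 regions were called.

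The count of level windows moved to 39 on forward reads (31 higher, 8 lower), 146 without division, 25 with the whole-ring mean and 48 with 50-bp windows (of 89). On adenine positions divided by the plasmid limma called 0, with 63 at an unadjusted p under 0.05. The cause was not tested. Without thinning all 152 windows had lower occupancy in isw2Δ. Of the 252 values for 18 named windows under the alternatives, 206 kept direction and call, 29 lost the call and 17 turned.

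Turned log2 ratios without division were 0.22 for window 32 and 0.33 for window 7 of ARS305, 0.23, 0.22 and 0.22 for windows 33, 37 and 2 of ARS315 and 0.30 for window 2 of ARS313. With adenine positions windows 7, 33, 37, 2 and 2 in that order gave 0.16, 0.33, 0.40, 0.16 and 0.038, and with adenine positions divided by the plasmid 0.048, 0.24, 0.38, 0.13 and 0.029. Window 2 of ARS315 gave 0.28 on forward reads. The open share of the TVS1 promoter differed by -4.91 points with an expected accessible length of 20 bp, -9.63 on forward reads, -3.90 with positions methylated on at least 5% of molecules and from -2.59 (without isw2Δ replicate 2) to 2.66 (without isw2Δ replicate 1) leaving out a library.

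Averaged over the origins, nucleosome-sized length differed by -0.125 bp. It gave -5 without thinning, -1.75 with thinning to the plasmid, 2.31 with the 5% minimum, 2.75 on forward and -1.88 on reverse reads, -6.13 without a model, and -1.25 to 1 bp leaving out a library. Spacing (17.3 bp) gave 19.1 with 120 to 180 bp footprints, 5.44 without thinning, 27.1 with the 5% minimum, 35.8 with emission rates of each library, 11.6 and 26.9 with accessible lengths of 20 and 80 bp, 21.5 on forward reads, 25.4 without a model, and 16 to 18.5 leaving out a library. The open stretch (27.7 bp) gave 58.4 without thinning, 45 with thinning to the plasmid, 48.4 with emission rates of each library, 4.25 on forward and 39.3 on reverse reads, 16.6 on adenine positions, 61.4 without a model, and 23.1 to 32.3 leaving out a library. Moved peaks numbered 9 with a 20-bp search (7 of them among the 14), 16 with a 50-bp mean (5), 15 on forward reads (7), 11 on reverse reads (5) and 17 to 22 leaving out a library, 22 without isw2Δ replicate 2.

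Against ies6Δ, 6 windows differed in level on adenine positions. Leaving out a library gave 3 to 9 windows for the level, 10 to 20 for occupancy and 1 to 4 regions, with the lowest value without isw2Δ replicate 2 each time. The alternative that keeps A and C of CG and GC was not run, since it needs the ring sequence. Undetected linkers merge footprints, so short linkers are missed at this methylation depth, and 1 wildtype library limits every difference.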
